A study of Rattus norvegicus with 6 samples.

Results

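The genes of 10 core cardiac transcription factors were followed in transplanted rat hearts: Gata4, Gata6, Nkx2-5, Tbx5, Tbx20, Hand2, Mef2a, Mef2c, Myocd and Srf. They were chosen by name, with earlier results of these data known, and all 10 are among the 22250 genes of the deposited table. RNA-Seq had been performed on left ventricular (LV) myocardium of 3 young and 3 aged donor hearts on postoperative day 1 of heterotopic heart transplantation, in which the donor heart is placed in a recipient that keeps its own heart. All donors were WT Sprague-Dawley rats, of 10 weeks in the young group and of 1 year in the aged group. All hearts had been stored cold and transplanted into young rats, so the groups differed in the age of the donor and not in the treatment. A heterotopic graft does not carry the load of the circulation, and no heart that had not been transplanted was analysed here. Libraries are called by the animal numbers in their titles, young hearts 3, 13 and 15 and aged hearts 3, 4 and 7, and the shared number 3 marks 2 different animals.

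Cardiac transcription factors bind short DNA motifs in the enhancers and promoters of heart muscle genes and recruit one another there. GATA4, NKX2-5 and TBX5 act together on many of the same genes from the first stages of heart development, MEF2 proteins and SRF switch on contractile genes, and myocardin (Myocd) is a coactivator that binds SRF and directs it to muscle genes. In the adult heart these factors keep the cardiomyocyte programme running, and several of them are also made in fibroblasts, endothelial cells or smooth muscle.

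Young hearts had 21457509 to 22277905 reads on genes and aged hearts 22508040 to 24560869. Levels are given as CPM, the usual depth-scaled read count, with libraries adjusted by edgeR's TMM factors, and 3 reads correspond to 0.122 to 0.14 CPM. The labelled tissue was checked with 12 cardiomyocyte markers, whose summed level was 93394, 103530 and 14701 CPM in young hearts 3, 13 and 15 and 196, 8992 and 7755 CPM in aged hearts 3, 4 and 7. Aged heart 3 stood apart, with 415 reads of Myh6, the main heavy chain of rat ventricular myosin, against 8428 to 13583 in the other aged hearts. Young heart 15 also stood apart from its group, since its 12 markers lay at 3.82% to 35.6% of the mean of young hearts 3 and 13. The summed level of 8 neutrophil markers was 5.75, 7.44 and 134 CPM in the young and 1440, 343 and 744 CPM in the aged hearts, and that of 7 macrophage markers was 196, 187 and 949.7 CPM in the young and 2506, 1549 and 1033 CPM in the aged hearts, so neither overlapped. No defining cardiomyocyte marker was at 0 reads in any heart. The summed level of 5 fibroblast markers was 3044, 2519 and 3819 CPM in the young and 2140, 1660 and 938 CPM in the aged hearts, without overlap, while endothelial and mural sums overlapped. Col1a1, the highest of the fibroblast markers in every young heart, did not overlap. Dcn, Lum, Pdgfra and Tcf21 overlapped between the groups, with Pdgfra on average higher and the others lower in aged hearts. The mean log2 CPM of the fibroblast markers also overlapped, at 8.08, 7.65 and 8.22 in the young and 8.06, 7.30 and 6.91 in the aged hearts. The part of these cell type markers in the results was not tested, and in bulk tissue fewer cells of a type and less RNA per cell cannot be told apart.

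Of the 10 factors, 5 were lower in aged donor hearts at the limits used here, namely Myocd, Gata6, Hand2, Gata4 and Mef2c, and 0 were higher. A gene is called here where its fold change is above 1.5 or below 0.67 and edgeR's quasi-likelihood test gives it an unadjusted p under 0.05, the limits that the study used. They called 32.2% of the 13784 genes tested, 19% lower and 13.2% higher. All 10 factors had a log2 fold change below 0, with a median of -1.47 against 0.016 for all genes tested. In 7 factors every aged heart lay below every young heart, as it did in 20.6% of genes tested, while 21% had every aged heart above. Srf, Mef2a and Tbx5 overlapped between the groups. Without young heart 15 and aged heart 3, an alternative chosen after seeing the data, 9 of the 10 were called lower, all but Srf. That alternative called 7396 genes in either direction, against 4436 in the main analysis. The share called lower among all genes is not given here, so the 9 cannot be set against it. With library totals as the only scaling, 2 of the 10 factors were called lower, Gata4 and Gata6. Of the 13784 genes tested, 4588 were then called in either direction. No member and no other gene had an adjusted p under 0.05 in edgeR, with a count of 0 (0%) against 4731 genes at an unadjusted p under 0.05. DESeq2 gave 3592 genes (26.1% of those tested) and 5 of the 10 members at an adjusted p under 0.05. Limma-voom with quality weights gave 8416 of the 13784 genes tested and 7 of the 10 members. The limma-voom share of members is near that of all genes, so it is not a result about the factors. With 3 hearts against 3, the two-sided exact permutation test used beside edgeR cannot give a p below 0.1.

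**Figure D1:**
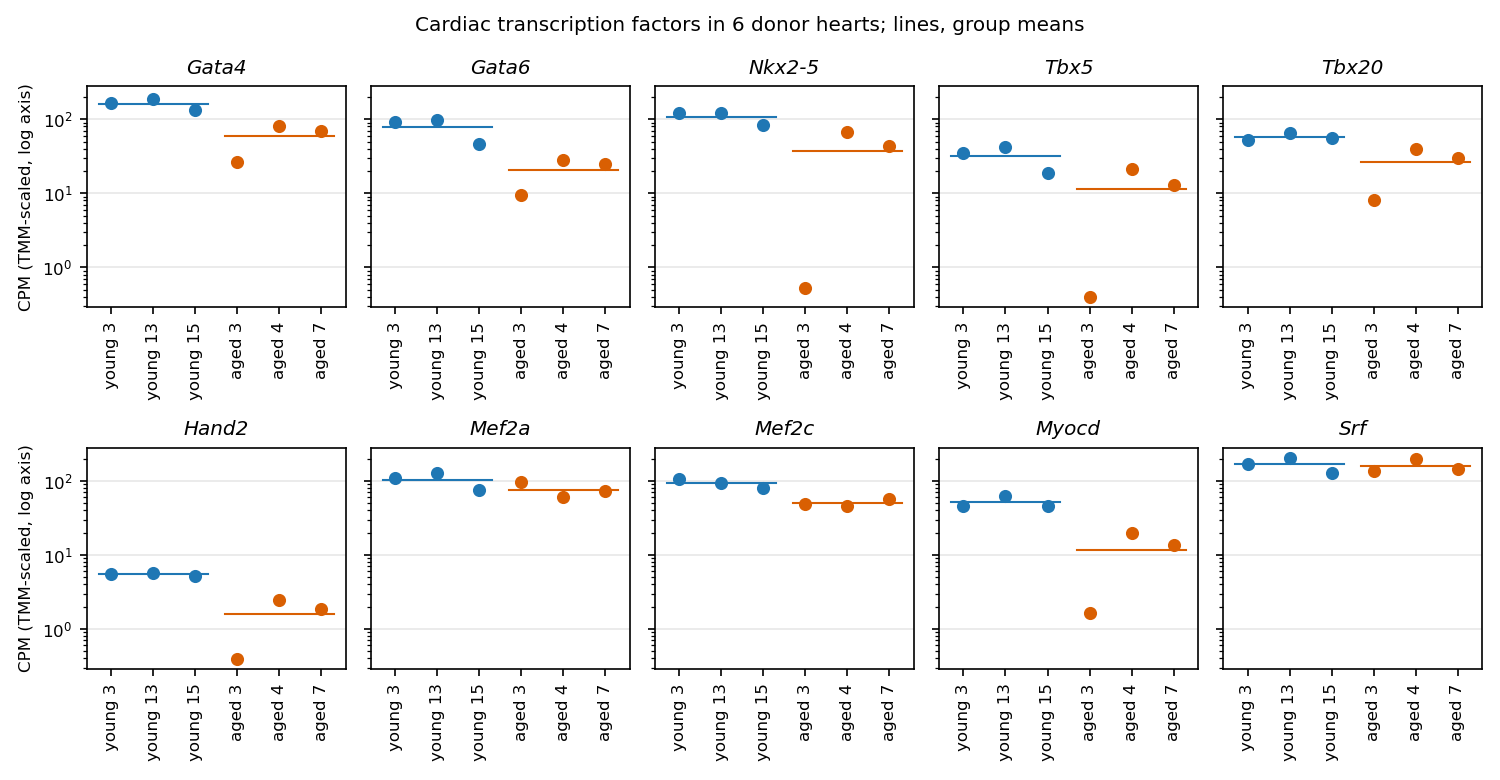
CPM (TMM-scaled, log axis) of the 10 factors in each donor heart, young in blue and aged in orange, with lines at the group means (n = 3 and 3). Aged heart 3 is at 0.525 CPM for Nkx2-5 and 0.394 CPM for Tbx5, while Srf is at 136 to 195 CPM in the aged and 128 to 206 CPM in the young hearts.

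GATA4 and GATA6 are zinc finger factors that bind the same core motif and share many targets in heart muscle. Gata4 (ENSRNOG00000010708, Rnor_6.0 chr15:46386712-46432965, minus strand) was at 168, 187 and 132 CPM in young hearts 3, 13 and 15 and at 26.5, 81.9 and 68.9 CPM in aged hearts 3, 4 and 7. The groups did not overlap, and aged heart 3 was the lowest. The mean was 162 ± 27.6 CPM (SD, n = 3) in young and 59.1 ± 29 CPM (SD, n = 3) in the aged group. Gata4 thus had a log2 fold change of -1.46 (SE 0.43), called in edgeR with an adjusted p of 0.0936 and an exact permutation p of 0.1. Gata6 (ENSRNOG00000023433, chr18:2416552-2446338, plus strand) was at 91.8, 96.5 and 46.7 CPM in the young and 9.43, 27.9 and 24.8 CPM in the aged hearts. Young heart 15 was the lowest of the young hearts, and it was still above all aged hearts. Gata6 had a log2 fold change of -1.92 (SE 0.48), called in edgeR with an adjusted p of 0.0916. At the same limits, Gata6 was called lower in all 14 alternative analyses and Gata4 in 13 of 14.

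The ratio of Gata6 to Gata4 reads within a heart does not depend on how libraries are scaled. It was 0.546 and 0.517 in young hearts 3 and 13, 0.352 in young heart 15, and 0.356, 0.341 and 0.359 in the aged hearts. The other 4 hearts thus lay together below young hearts 3 and 13, and the groups overlapped (exact permutation p = 0.3).

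NKX2-5 is the homeodomain factor of the heart field and of the conduction system, and the T-box factors TBX5 and TBX20 bind a common motif, TBX5 mostly as an activator and TBX20 as an activator or a repressor. Nkx2-5 (ENSRNOG00000020747, chr10:16635989-16638764, plus strand) was at 120.0, 119.8 and 84.6 CPM in young hearts 3, 13 and 15 and at 0.525, 68 and 43.5 CPM in aged hearts 3, 4 and 7. Aged heart 3 had 16 reads of it, against 1134 to 2048 reads in the other 5 hearts. The groups did not overlap, but the log2 fold change of -1.53 had an SE of 1.25 and was not called (edgeR adjusted p = 0.39). Without aged heart 3 it was -0.95 and called, with an unadjusted edgeR p of 0.023.

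Tbx5 (ENSRNOG00000001399, chr12:42097626-42148146, plus strand) was at 35.6, 42.7 and 18.9 CPM in the young and 0.394, 21.2 and 13 CPM in the aged hearts. Aged heart 4 was above young heart 15, so the groups overlapped, and aged heart 3 had 12 reads. Tbx5 had a log2 fold change of -1.49 (SE 1.10) and was not called (edgeR adjusted p = 0.347). Tbx5 is more abundant in atrial than in ventricular muscle. The summed level of 4 atrial markers was 62.6, 7.44 and 4.21 CPM in the young and 1.87, 166 and 4.25 in the aged hearts. Aged heart 4 had the highest atrial sum and the most Tbx5 of the aged hearts. It was also the highest aged heart for Gata4, Gata6, Nkx2-5, Tbx20, Hand2, Myocd and Srf. Young heart 3 had the highest atrial sum of the young hearts but less Tbx5 than young heart 13. The part of atrial tissue in the level of Tbx5 was not tested. Tbx5 was not called without aged heart 3 alone, at -0.91 with an unadjusted edgeR p of 0.0839, or without young heart 15 alone, at -1.73 with an unadjusted edgeR p of 0.192. It was called with both left out, at -1.16 with an unadjusted edgeR p of 0.00315, and in limma-voom, and its log2 fold change was 1.08 with the cardiomyocyte marker covariate.

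Tbx20 (ENSRNOG00000016181, chr8:25850962-25904570, minus strand) was at 52.9, 66.1 and 56 CPM in the young and 8.24, 40.2 and 30.4 CPM in the aged hearts. Its young hearts were close to one another, young heart 15 included, and all aged hearts were below them. Tbx20 was not called, at a log2 fold change of -1.15 (SE 0.53, edgeR adjusted p = 0.174). It was called without aged heart 3, at -0.72, and without aged heart 4, at -1.59.

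Aged heart 3 was not low in all of these factors to the same degree. Its level, as a percentage of the mean of aged hearts 4 and 7, was 0.943% for Nkx2-5 and 2.31% for Tbx5, but 23.4% for Tbx20, 35.1% for Gata4 and 35.8% for Gata6. The ratio of Nkx2-5 to Gata4 reads was 0.714, 0.641 and 0.639 in the young hearts and 0.831 and 0.631 in aged hearts 4 and 7, against 0.0199 in aged heart 3. Aged heart 3 alone was far below the other 5 hearts, and the groups overlapped (exact permutation p = 0.7). The ratio of Tbx5 to Tbx20 reads was 0.672, 0.646 and 0.337 in the young and 0.0478, 0.526 and 0.429 in the aged hearts, which overlapped as well (exact permutation p = 0.4).

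HAND2 is a basic helix-loop-helix factor that is known for its part in the growth of the right ventricle in the embryo. Hand2 (ENSRNOG00000060448, chr16:36371489-36373546, minus strand) had the lowest mean CPM of the 10 factors in both groups, at 5.57, 5.6 and 5.2 CPM in the young and 0.394, 2.46 and 1.84 CPM in the aged hearts. The 3 young hearts were within a narrow range, and aged heart 3, with 12 reads, was the lowest of the aged hearts. Hand2 had a log2 fold change of -1.80 (SE 0.62), called in edgeR with an adjusted p of 0.112 and an exact permutation p of 0.1. The call was lost when young heart 3, young heart 13 or aged heart 7 was left out, with unadjusted edgeR p-values of 0.0548, 0.0538 and 0.0573.

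MEF2A and MEF2C are MADS-box factors that bind AT-rich motifs of contractile and metabolic genes and respond to calcium signals through class II histone deacetylases. Mef2c (ENSRNOG00000033134, chr2:11658568-11822787, plus strand) was at 105, 92.8 and 80.2 CPM in the young and 47.9, 46.1 and 56.1 CPM in the aged hearts. Here aged heart 3 was in the middle of its group, and the groups did not overlap. The mean was 92.7 ± 12.5 CPM (SD, n = 3) in young and 50.1 ± 5.31 CPM (SD, n = 3) in aged donor hearts. The log2 fold change of -0.89 had an SE of 0.18, the smallest among the 10 factors, and was called in edgeR with an adjusted p of 0.0916. Under library totals alone it was -0.42 and not called, with an unadjusted edgeR p of 0.0972.

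Mef2a (ENSRNOG00000047756, chr1:128209971-128341263, minus strand) was at 109, 126 and 74.2 CPM in the young and 95.4, 59.7 and 72.3 CPM in the aged hearts. Aged heart 3 was the highest of the aged hearts and lay above young heart 15. The log2 fold change was -0.45 (SE 0.28) and was not called (edgeR adjusted p = 0.276), and with library totals as the only scaling it was 0.067. The ratio of Mef2c to Mef2a reads was 0.961, 0.735 and 1.08 in the young and 0.502, 0.773 and 0.775 in the aged hearts, and overlapped (exact permutation p = 0.3).

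SRF is a MADS-box factor made in many cell types, which binds the CArG box and activates muscle genes with myocardin and immediate early genes with ternary complex factors such as ELK1. Srf (ENSRNOG00000018232, chr9:16737642-16747225, plus strand) was at 169.6, 206 and 128 CPM in the young and 136, 195 and 145 CPM in the aged hearts. All 3 aged hearts lay within the range of the young hearts. The log2 fold change was -0.078 (SE 0.26; edgeR adjusted p = 0.844, exact permutation p = 0.9), and its sign turned under library totals alone (0.41), with cardiomyocyte markers as a covariate (0.33), without young heart 13 (0.096) and without aged heart 3 (0.028).

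Myocd (ENSRNOG00000003669, chr10:51683540-51778986, minus strand), the coactivator of SRF, was at 46.3, 61.9 and 46.2 CPM in the young and 1.64, 19.7 and 13.6 CPM in the aged hearts. The groups did not overlap, and young heart 15 was as high as young heart 3. The mean was 51.5 ± 9.04 CPM (SD, n = 3) in young and 11.6 ± 9.19 CPM (SD, n = 3) in the aged group. Its log2 fold change of -2.15 (SE 0.79) was the largest in size among the 10 factors, called in edgeR with an adjusted p of 0.12 and an exact permutation p of 0.1. The call was lost when young heart 3, young heart 13 or aged heart 7 was left out, with unadjusted edgeR p-values of 0.0526, 0.0695 and 0.0726.

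**Figure D2:**
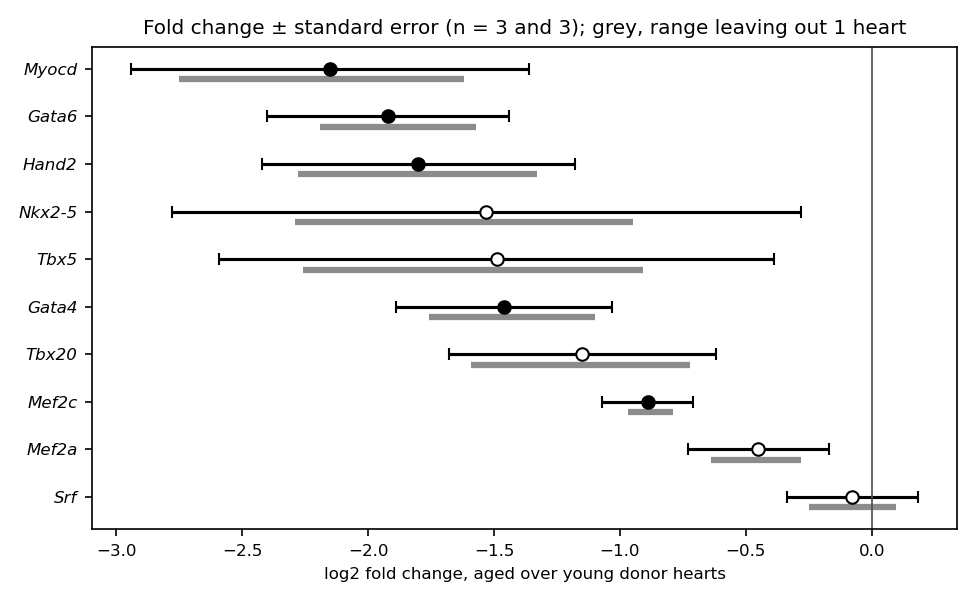
Log2 fold change of each factor, aged over young donor hearts, with its standard error (bars, n = 3 and 3), filled points for called genes and open points for the others, and in grey the range of the value when 1 heart is left out. Myocd is at -2.15 and Srf at -0.078, and the grey range crosses 0 for Srf only among the 10 factors.

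Myocd was also set against its partner Srf. The number of Myocd reads per Srf read in the same heart was 0.273, 0.301 and 0.362 in young hearts 3, 13 and 15 and 0.0121, 0.101 and 0.0934 in aged hearts 3, 4 and 7. The lowest young heart was above the highest aged heart, and the log2 ratio differed by -2.68 (mean -1.69 ± 0.21 SD in young and -4.37 ± 1.74 SD in aged hearts, n = 3 each, exact permutation p = 0.1). Of the 5 within-heart ratios computed, which were chosen after the values were seen, this was the only one without overlap.

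**Figure D3:**
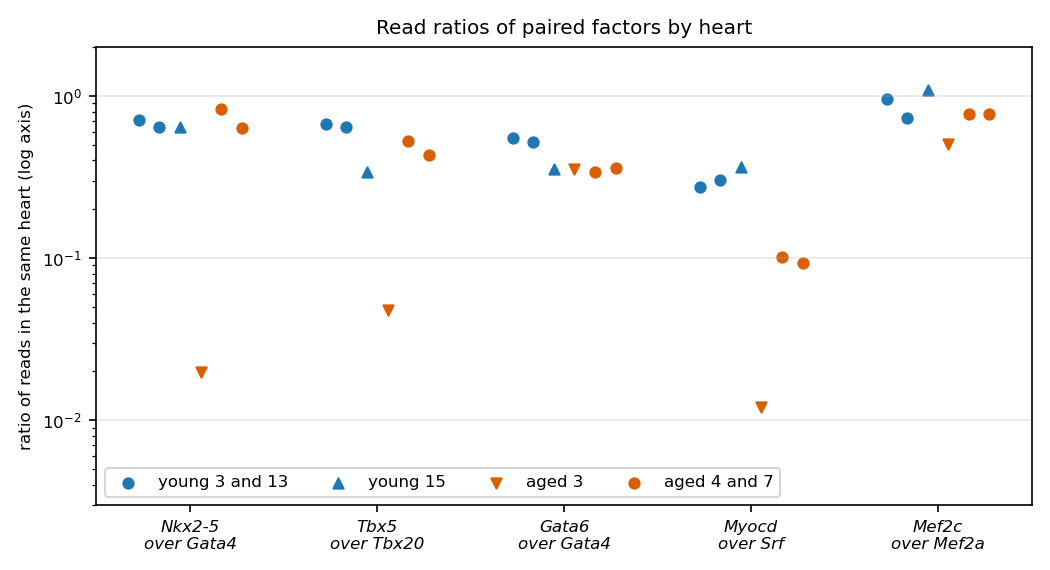
Ratio of the reads of paired factors within each heart (log axis), young in blue and aged in orange, with triangles for young heart 15 and aged heart 3. Myocd over Srf is at 0.273 to 0.362 in young and 0.0121 to 0.101 in aged donor hearts, and the other 4 ratios overlap between the groups.

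Promoters were searched for the CArG box, the MEF2 box, and the core motifs AGATAA of zinc finger factors such as GATA4, AGGTGT of T-box factors, CAAGTG of NKX2-5 and CATTCC of TEAD factors, in the 7 factors with an entry in the promoter table. Gata4, Mef2c and Myocd have none. The annotated start of the Nkx2-5 entry lies inside the span of its gene, and the strand of the Tbx5 entry differs from that in Rnor_6.0. For Nkx2-5 and Tbx5 the bases searched may therefore not be the promoter, and the lack of a match there is not informative. Matches were found in 3 of the 7, in Hand2 with 1 AGATAA and 1 CAAGTG, and in Srf and Mef2a. The last 2 are shown because each holds a motif of its own family, a choice that says nothing about which factors were called. They are RefSeq entries on the GRCr8 build, 250 bases that end at the base before the annotated start, and are shown 5′ to 3′ with the match in capitals. The Srf sequence (chr9:21923826-21924075, plus strand) holds 2 CArG boxes, the motif of SRF, at 81 to 72 and 61 to 52 bases before the start. The Mef2a sequence (chr1:130392163-130392412, minus strand) holds 1 MEF2 box, 40 to 31 bases before the start.
Srf promoter: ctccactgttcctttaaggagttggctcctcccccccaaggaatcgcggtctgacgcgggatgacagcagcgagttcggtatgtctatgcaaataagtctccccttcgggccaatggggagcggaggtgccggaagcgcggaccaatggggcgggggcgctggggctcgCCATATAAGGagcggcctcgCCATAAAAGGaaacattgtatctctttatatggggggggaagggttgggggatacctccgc
Mef2a promoter: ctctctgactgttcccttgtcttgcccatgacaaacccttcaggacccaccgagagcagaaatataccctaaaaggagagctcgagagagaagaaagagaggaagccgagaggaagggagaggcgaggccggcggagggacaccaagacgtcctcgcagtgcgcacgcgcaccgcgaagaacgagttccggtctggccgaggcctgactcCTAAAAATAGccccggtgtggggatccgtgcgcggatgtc
Among 33469 promoters of the same length, searched on both strands, 1.5% hold a CArG box, 0.523% a MEF2 box, 10.3% AGATAA, 11.6% AGGTGT, 11.7% CAAGTG and 12.1% CATTCC. A match describes the letters only and is not a measured binding site.

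Levels of different genes were compared after division by gene length, as CPM per kilobase. In young donor hearts Nkx2-5 was the highest at 80.4 ± 15.2 CPM per kilobase (SD, n = 3), followed by Gata4 at 48.4 ± 8.22, Srf at 40.9 ± 9.51, Gata6 at 36.3 ± 12.8, Mef2a at 30.4 ± 7.82 and Tbx20 at 26.3 ± 3.11. Below these came Mef2c at 14.4 ± 1.94, Myocd at 10.1 ± 1.78, Tbx5 at 9.25 ± 3.49 and Hand2 at 8.46 ± 0.338 CPM per kilobase, where the gene model of Hand2 is only 645 bases long. The hearts of neighbours in this order overlapped from Gata4 to Tbx20 and again from Myocd to Hand2. In aged donor hearts the order of the means began with Srf at 38.7 ± 7.73, Nkx2-5 at 27.8 ± 25.4, Mef2a at 22.3 ± 5.33 and Gata4 at 17.6 ± 8.64, and ended with Tbx5 at 3.29 ± 2.99, Hand2 at 2.43 ± 1.65 and Myocd at 2.29 ± 1.81 CPM per kilobase. In aged heart 3 alone, Srf was at 33.2 and Mef2a at 28.1 CPM per kilobase, while Nkx2-5 was at 0.391, Myocd at 0.323 and Tbx5 at 0.113.

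The factors were then set against the cardiomyocyte markers of the same heart. The mean log2 CPM of the 12 markers was 12.15, 12.27 and 9.67 in young hearts 3, 13 and 15 and 3.45, 8.95 and 8.56 in aged hearts 3, 4 and 7, a difference of -4.38 between the groups (exact permutation p = 0.1). Every aged heart was below every young heart, and young heart 15 was nearer to aged hearts 4 and 7 than to the other young hearts. Each of the 10 factors, expressed as log2 CPM minus this marker mean, was on average higher in aged than in young donor hearts, by 1.25 for Nkx2-5 to 4.31 for Srf, with a median of 2.58. Over all genes tested the median of this difference was 4.39, and 99.4% of them were higher, so its sign is not a result about the factors. Of the 10, 5 did not overlap between the groups on this scale, namely Gata4, Tbx5, Tbx20, Mef2a and Srf, each with an exact permutation p of 0.1, against 86.4% of all genes tested with every aged heart above every young heart.

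With the marker mean as a covariate in edgeR, 2 of the 10 factors, Gata6 and Mef2c, were called lower and 0 higher. Of all genes tested, 758 were called in either direction. The log2 fold changes of Nkx2-5 and Tbx5 were 0.94 and 1.08. The covariate separates the groups itself, so donor age and marker level cannot be told apart in this fit.

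Genes that these factors are known to activate in heart muscle were called in 1 direction only. Of 25 cardiac muscle targets, all tested, 8 were called lower and 0 higher, against 19% and 13.2% of all genes tested. Myh6, Actc1, Tnni3, Tnnt2, Tnnc1, Myl2, Actn2, Ckm and Mb are also among the 12 cardiomyocyte markers, so targets and markers are not separate measures. The targets had a median log2 fold change of -2.15 against -1.47 for the factors and 0.016 for all genes tested. Myh6 had the largest at -6.09 (SE 1.85), from 26873, 29955 and 1085 CPM in young hearts 3, 13 and 15 to 13.6, 515 and 323 CPM in aged hearts 3, 4 and 7. The others called were the cardiac actin Actc1 (-4.70), the sarcoplasmic calcium pump Atp2a2 (-3.80), the ventricular light chain Myl2 (-3.50), the skeletal actin Acta1 (-3.43), the L-type calcium channel Cacna1c (-1.80) and 2 more.

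In young heart 15 the targets were at a median of 38.7% of the mean of young hearts 3 and 13, and the 10 factors at 72.7%. In aged heart 3 the targets were at a median of 2.17% of the mean of aged hearts 4 and 7, and the factors at 29.2%. All genes tested had medians of 100.5% and 100.1% for these hearts. The targets did not move as one, since they ranged from 3.82% to 1555% in young heart 15. The stress-linked gene Xirp2 was at 266, 344 and 4744 CPM in the young and 30.7, 2437 and 4386 CPM in the aged hearts, and Nppa, a natriuretic peptide gene of stressed and atrial muscle, was at 21.2, 37.3 and 390.3 CPM in the young and 4.57, 1367 and 368 CPM in the aged hearts. Neither was called, and both groups overlapped. These 2 targets were named after their values were seen.

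**Figure D4:**
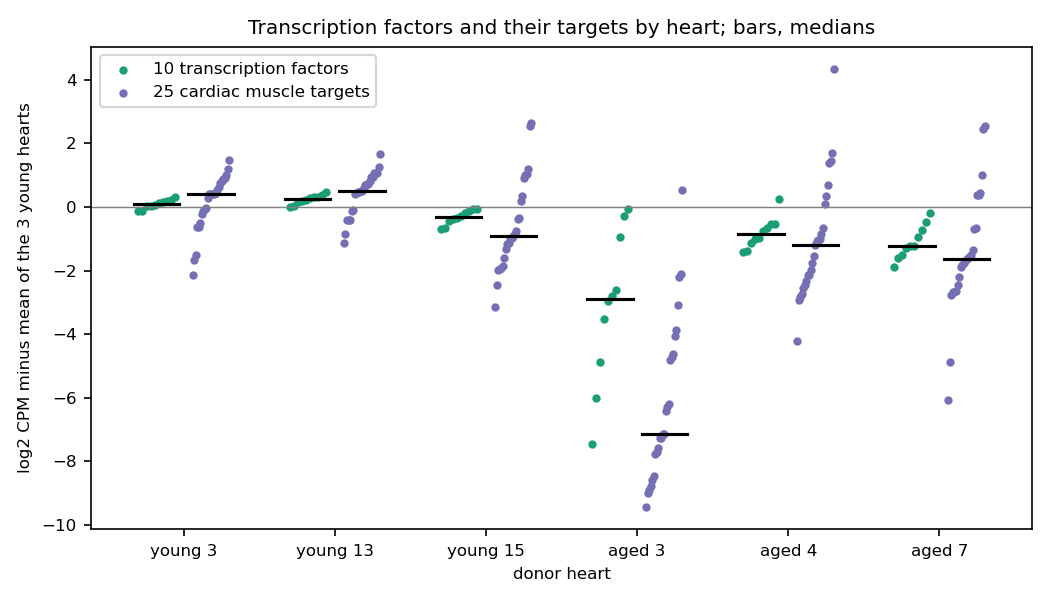
Log2 CPM of the 10 factors and the 25 cardiac muscle targets in each donor heart, minus the mean of the 3 young hearts, with black bars at the medians. The targets spread more widely than the factors, and in aged heart 3 the medians are -7.13 for the targets and -2.88 for the factors.

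Genes of SRF with roles outside the sarcomere, in smooth muscle or as immediate early genes, were called in both directions. Of the 18 tested, 5 were called higher and 2 lower, against 13.2% and 19% of all genes tested, with a median log2 fold change of 0.94. The 5 were Fos (2.04), Junb (1.97) and Egr3 (1.85), the cytoskeletal actin Actg1 (1.62) and Egr1 (1.40), and the 2 were Smtn (-1.85) and Vcl (-0.94). Junb, a subunit of the AP-1 factor, was at 38.4, 32.4 and 125 CPM in young hearts 3, 13 and 15 and at 271, 207 and 289 CPM in aged hearts 3, 4 and 7. All aged hearts were above all young hearts, and young heart 15 was the highest of the young. These genes are expressed in many cell types, and the neutrophil and macrophage marker sums given above were higher in the same hearts. The part of these cells in the levels was not tested. It cannot be told apart from donor age, since the sums separate the same groups. Among the smooth muscle genes of this list, Smtn was called lower, and Acta2, Tagln, Cnn1, Myh11, Lmod1 and Actg2 were not called in either direction. The log2 fold changes of those not called lay between -0.74 and 0.42, so the median of 0.94 describes neither these nor Smtn.

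Related transcription factors of the heart were called in 1 direction only. Of 16 related factors 12 were tested, and 7 were called lower and 0 higher, against 19% and 13.2% of all genes tested. The median log2 fold change was -1.06. Gata5, another cardiac GATA factor, was at 62.3, 60.7 and 10.9 CPM in the young and 0.23, 4.06 and 3.41 CPM in the aged hearts. Its log2 fold change of -4.12 (SE 1.11, edgeR adjusted p = 0.0919) was larger in size than those of Gata4 and Gata6. Irx4, a ventricular homeodomain factor, had a log2 fold change of -3.91, and Hey2, a Notch target of ventricular muscle, one of -1.85, while Irx3, Tbx3 and Mef2d lay between -1.55 and -0.89. Tbx1 went the other way, at 1.51, 0.636 and 0.867 CPM in the young and 1.61, 1.97 and 1.53 CPM in the aged hearts, without overlap. Its log2 fold change of 0.76 was not called. Hand1, Mef2b, Isl1 and Nkx2-6 had too few reads to be tested.

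Coactivators and corepressors of the 10 factors were called in both directions. Of 19 coactivators tested, 4 were lower and 2 higher, with a median log2 fold change of -0.02. These counts are close to the 19% lower and 13.2% higher of all genes tested, so they are not a result about coactivators. Smyd1, a muscle-specific methyltransferase, had the largest at -3.62, followed by Nfatc2 at -1.73, the chromatin remodelling subunit Smarcd3, which works with GATA4 and TBX5, at -1.55 and Tead1 at -0.81. Smyd1 was at 276, 393 and 204 CPM in the young and 0.263, 57.1 and 13.9 CPM in the aged hearts. Tead4 (1.00) and the LIM protein gene Csrp1 (1.01) were higher. Mrtfa, which like myocardin binds SRF and is made in most cells, was at 27.2, 24 and 38.4 CPM in the young and 41.6, 45.7 and 34.1 CPM in the aged hearts, which overlapped. It was not called.

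Of 15 genes listed as corepressors 6 were called lower and 2 higher, against 19% and 13.2% of all genes tested, with a median log2 fold change of -0.47. Fhl2, a LIM protein of cardiomyocytes that binds SRF, had the largest at -4.01, followed by the class II histone deacetylase Hdac9 at -1.73. Next came Elk1 at -1.30, Hdac5 at -0.98, the GATA4 partner Zfpm2 at -0.93 and Foxo4 at -0.88. Elk1 is in this list although ELK1 activates immediate early genes with SRF. Hopx (1.06), which binds SRF, and Hdac4 (0.81) were higher. The histone deacetylases that bind MEF2 thus did not share a direction, as Hdac4 was at 8.95, 12.3 and 15.7 CPM in the young and 26.1, 18.5 and 20.3 CPM in the aged hearts, and Hdac5 at 137, 143 and 91.1 CPM in the young and 57, 71.8 and 58.9 CPM in the aged hearts. Neither overlapped between the groups. Over the 5 lists, 27 of 89 tested genes were called lower and 9 higher, against 19% and 13.2% of all genes tested. With library totals alone these counts were 14 and 14, while 4588 of all genes tested were called in either direction. That scaling moved the median log2 fold change of all genes to 0.46.

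Genes whose pattern over the 6 hearts was most like that of each factor were found by the root mean square difference of centred log2 CPM among 9561 genes (9562 for Hand2) with a mean of at least 10 CPM. The muscle myosin gene Myo18b was at 0.264 from Nkx2-5. The 2 nearest to Myocd were the calcium channel subunit Cacnb2 (0.193) and the muscle ring finger gene Trim55 (0.234). Those of Tbx5 were the small heat shock gene Hspb2 (0.194) and Frmd5 (0.249). Myo18b was at 275, 334 and 150.4 CPM in the young and 1.58, 121 and 108 CPM in the aged hearts, lowest in aged heart 3 as Nkx2-5 was.

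Gata4 was nearest to Mief2 (0.11) and Vldlr (0.118), Gata6 to Ca11 (0.11) and the sarcoglycan gene Sgcb (0.12), Tbx20 to Rbpms2 (0.142) and Pacsin3 (0.142), and Hand2 to Filip1 (0.153) and Osbp2 (0.163). Mef2c was nearest to Ttc23 (0.088) and Lypla1 (0.098). The flattest patterns had the nearest neighbours, Mef2a with Fam117b (0.0331) and Masp2 (0.0468) and Srf with the RNA polymerase II subunit Polr2j (0.0349) and Ehd3 (0.0635). Genes within 0.25 numbered 614 for Mef2a, 871 for Srf and 401 for Mef2c, so the neighbours named for these are among many. The numbers were 50 for Gata6, 31 for Gata4, 10 for Tbx20, 9 for Hand2, 2 for Tbx5, 2 for Myocd and 0 for Nkx2-5. Among the 10 factors the most alike pair was Gata4 and Tbx20 (0.247), followed by Gata4 and Gata6 (0.28).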

How the data were processed

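Polyadenylated RNA of 6 hearts was sequenced in paired-end libraries. The authors deposited 1 table with the raw read count of each gene in each heart, without normalization, and with FPKM values, which are the count divided by gene length and by the reads on genes (checked on 133500 values within 0.5%, with 1 exception). The submitters' processing notes name HISAT2 2.0.5, featureCounts 1.5.0-p3, StringTie 1.3.3b, DESeq2 1.16.1, GATK 3.7 and Rnor_6.0. The use of strand in counting is not given in the sources used here, so reads of antisense partners cannot be told apart. No other gene of the table overlaps a member.

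The counts were analysed with R 4.3.3, edgeR 4.0.16 (filterByExpr, TMM, glmQLFit and glmQLFTest, without covariates), limma 3.58.1, DESeq2 1.42.0, Python 3.11.15 and scipy 1.17.1. Standard errors were obtained from the F statistic as log2 fold change over its square root, and adjusted p-values are Benjamini-Hochberg over all 13784 genes tested. Log2 CPM used a prior count of 2. Permutation tests were exact and two-sided. Hearts were grouped by the labelled donor age, and p-values cover the spread between these hearts only. Scripts were tested on simulated data.

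The members and lists were chosen with earlier results of these data known. Genes named were the 10 members, at most 6 called genes per list and direction and any called gene against its list's direction. The 2 nearest genes per member and markers where a level was checked were also named. Others were chosen after their values were seen, and Mrtfa, Tbx1, the smooth muscle genes and the untested factors belong to these. Alternatives were other scalings, filters, tests and thresholds, the marker covariate and leaving out hearts. Mrtfb, Kat2b, Mcl1, Pecam1, Col1a2 and Hba1 were not analysed here. 1 gene named by this rule is not reported here.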

Additional observations from a re-analysis of the deposited data

How the results depend on the processing

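The 5 calls among the 10 factors rested on unadjusted p-values, and 0 genes and 0 members passed an adjusted p under 0.05 in edgeR. With DESeq2's size factors, no filter on low counts or at least 10 reads in every heart, 5 members were called lower. All genes called then numbered 4423, 4863 and 4060. DESeq2's Wald test called 6 members lower and 5069 genes. In this section, counts of all genes called are of either direction. Library totals alone called 4588 genes, 2 members lower, and 14 related, cofactor and target genes lower and 14 higher. The log2 fold change was then 0.067 for Mef2a and 0.41 for Srf. Limma-voom with quality weights called 7504 genes, 8 members lower, and 40 related genes lower and 15 higher. The cardiomyocyte marker covariate left 758 genes, 2 members lower, and 3 related genes lower and 2 higher, with Nkx2-5 at 0.94, Tbx5 at 1.08 and Srf at 0.33, and the median log2 fold change of the members was -0.52 in place of -1.47. Without young heart 15 and aged heart 3, chosen after seeing the data, 7396 genes, 9 members lower, and 40 related genes lower and 20 higher were called. The cause of these differences was not tested.

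Leaving out 1 heart at a time gave 2432 (without young heart 3) to 7214 genes (without young heart 15), 3 to 7 members lower, 0 higher, and 15 to 31 related genes lower and 4 to 15 higher. Members called numbered 3 without young heart 3, young heart 13 or aged heart 7, and 7 without aged heart 3. The median log2 fold change of the members ranged from -1.97 to -0.93, and that of Srf from -0.25 to 0.096, with 0.028 without aged heart 3. The median difference of members from cardiomyocyte markers ranged from 1.68 to 3.31.

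At the same limits Gata6 remained called in all 14 alternatives, Gata4 and Mef2c in 13, and Hand2 and Myocd in 9. No paired analysis was possible because the groups share only the number 3, which marks different animals. In aged heart 3, the 12 reads of Tbx5, 12 of Hand2 and 16 of Nkx2-5 limit the precision of their values.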
